A study of Mus musculus with 6 samples.

Results

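Border-associated macrophages are the resident macrophages of the brain's outer compartments, namely the meninges, the perivascular spaces and the choroid plexus. Like microglia, the macrophages of the brain parenchyma, they carry CD11b on their surface, so beads against CD11b bind both. They are told apart by genes that border macrophages express strongly and homeostatic microglia little or not at all. Many of these encode scavenger, lectin or hyaluronan receptors, through which these cells take up material from the fluid around vessels and meninges. The markers Mrc1, Pf4, Lyve1, Cd163, Ms4a7, F13a1, Cbr2, Siglec1, Stab1 and Cd38 were followed through every library. All 10 were matched by Ensembl identifier among the 26789 genes of the deposited table.

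The libraries were made from the rostral nucleus of the solitary tract (NST), the first brainstem relay of taste, of P15 mice, 3 libraries per group. Control mice came from mothers kept on standard chow, and E3–E12 diet mice from mothers fed low-sodium chow from E3 to E12 and standard chow afterwards. By the study's methods each library pooled 6 littermates, and cells were selected with CD11b magnetic beads after papain digestion. The labels instead name laser microdissection, so the isolation step is uncertain. In such bulk libraries, fewer cells of a type and less RNA per cell cannot be told apart. The values are normalized counts, which summed to between 9407141 and 17204618 per library, and the reads assigned to genes behind them are not given in the sources used here.

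Control replicate 2 stood apart before any comparison. It had the highest total and the most genes listed at 0 (10640, against 3459 to 7135 in the other libraries). The 6 neutrophil genes examined were all highest there, summing to 3612 normalized counts against 472 to 700 elsewhere. The 7 endothelial genes were split there, since Cldn5 (1207 normalized counts) and Pecam1 (3154) were at their highest of all 6 libraries while the other 5 had at most 95.4, and the median of the list was 7.07 normalized counts per kb of exon, against 208 to 377 elsewhere. Results that rest on this library are therefore given with and without it. Tyrobp, which microglia express widely, was listed at 0 in all 3 E3–E12 diet libraries and at 182, 59.5 and 1494 normalized counts in the controls. An exact 0 among these values may therefore be a failed estimate, which was not tested. No border macrophage marker was listed at 0 in any library.

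Transcripts of all 10 border macrophage markers were present in every library. Which cells in these bulk libraries they came from was not tested. Scaled by the length of its annotated exons, Stab1 had the highest mean over the 6 libraries, at 1165 normalized counts per kb. Mrc1 followed at 804, Cbr2 at 707, Lyve1 at 493 and F13a1 at 250.1 normalized counts per kb. Below these came Ms4a7 at 90.5, Siglec1 at 81.4, Cd163 at 74.3, Cd38 at 69.2 and Pf4 at 63.4 normalized counts per kb. Neighbours in this order overlapped in their ranges over libraries, except F13a1 and Ms4a7. F13a1 lay between 141 and 544 normalized counts per kb and Ms4a7 between 73.0 and 116. Markers farther apart in the order did overlap. Pf4, the last by mean, reached 239 normalized counts per kb in control replicate 3, above F13a1 (193), Lyve1 (222) and Stab1 (238) in that library. Over the 10 markers the median was 101 to 360 normalized counts per kb by library, against 1142 to 6079 over the 12 microglia genes. Single microglia genes reached lower, and Slc2a5, Gpr34 and Olfml3 had means of 454, 896 and 975 normalized counts per kb, all under that of Stab1.

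**Figure D1:**
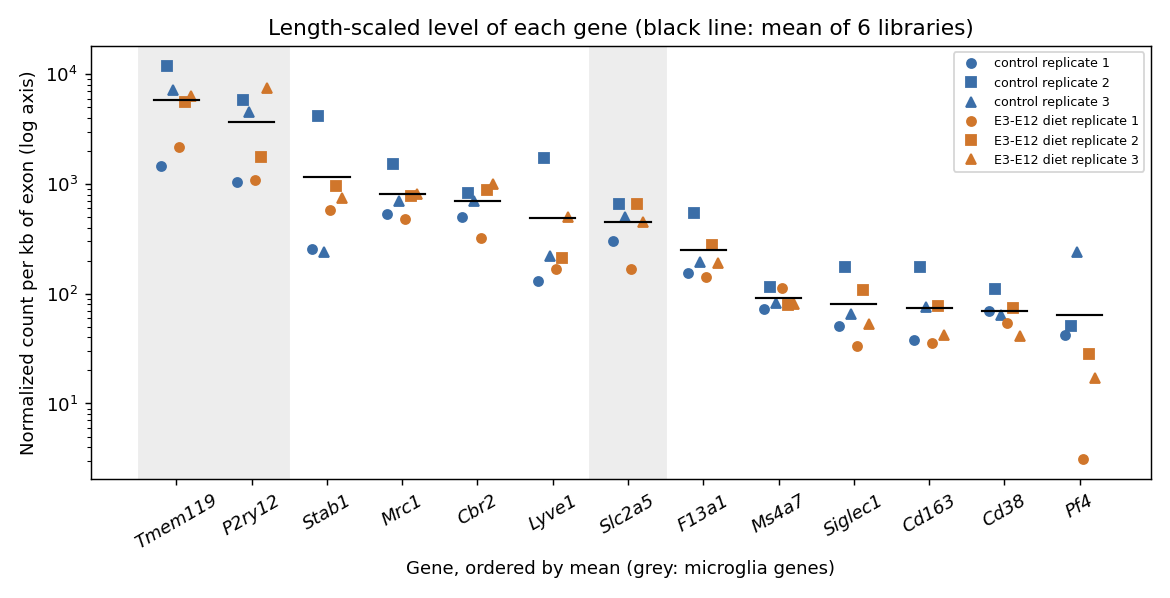
Normalized counts per kb of exon (log axis) for the 10 border macrophage markers and 3 microglia genes (grey background), with 1 point per library and a black line at the mean of the 6 libraries. Tmem119 and P2ry12 have the highest means, Slc2a5, the lowest of the 12 microglia genes by mean, lies among the markers, and the points of Pf4 and Stab1 spread the most.

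No marker passed the test for a difference between diets. The comparison used limma on log2(normalized count + 1) over the 18007 genes that averaged 10 normalized counts or more, with Benjamini-Hochberg adjustment and a threshold of 0.1. None of the 10 markers passed (adjusted p = 0.999 for each), where 0% of all genes tested passed. Without adjustment, 1 marker, Pf4, had a p under 0.05, where 1.82% of all genes tested did (327 genes). Without control replicate 2 there were 2, Pf4 lower and Stab1 higher in E3–E12 diet mice, among 429 genes. By mean log2 level, 8 markers lay lower in E3–E12 diet mice and 2 higher (7 and 3 after quantile normalization), where 8210 of the 18007 genes lay lower. The median log2 change of the markers was -0.44, against 0.09 over all genes tested. That median was 0.15 without control replicate 2, with 4 markers lower and 6 higher. The 12 microglia genes lay on the same side, with 11 lower and a median log2 change of -0.32.

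**Figure D2:**
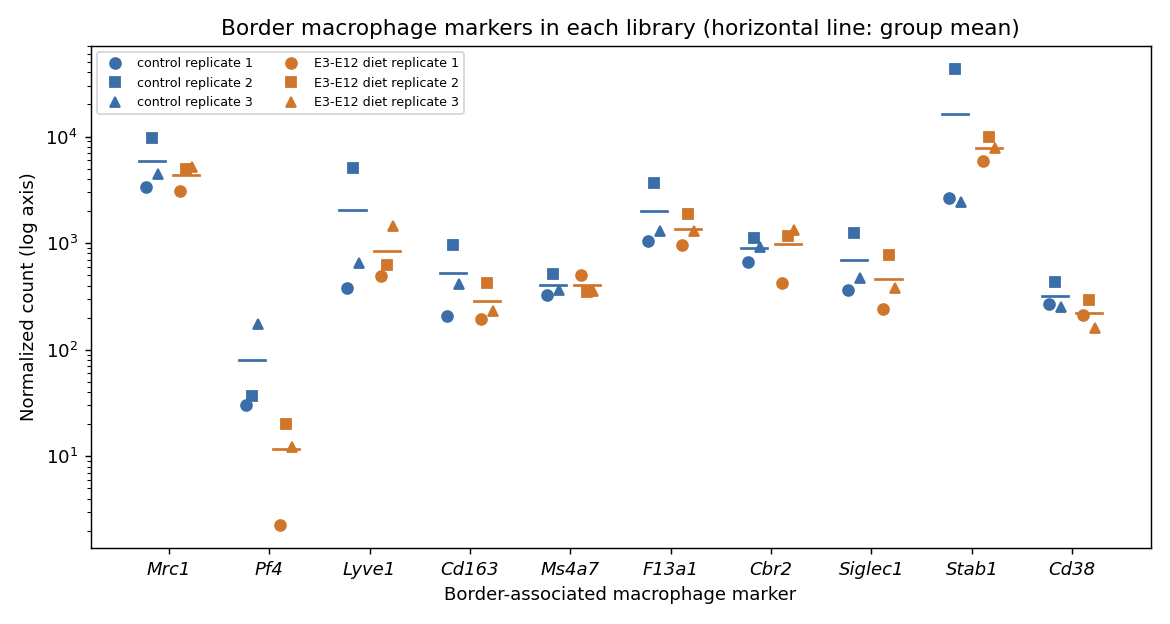
Normalized counts of each marker (log axis) in the 3 control and 3 E3–E12 diet libraries, with a horizontal line at each group mean. Control replicate 2 is the highest library for 8 of the 10 markers, and the groups are separate only for Pf4.

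Stab1 and Lyve1 encode the scavenger receptor stabilin-1 and a hyaluronan receptor, and both are also made by some endothelial cells, Lyve1 mainly by those of lymphatic vessels. Stab1 (chromosome 14, 31139013 to 31168641 in GRCm38, as for the coordinates of all genes here) had 2630, 43256 and 2453 normalized counts in the 3 control libraries, in replicate order. In the diet libraries it had 5956, 9864 and 7737. Its 3 diet libraries were close to each other and sat between the low controls and control replicate 2, which was 4.39 times the next highest library. The arithmetic mean was thus lower in E3–E12 diet mice (7852 ± 1957 against 16113 ± 23507, SD, n = 3 each), whereas the log2 change was positive at 0.23 (SE 1.19). Leaving out control replicate 2, its highest library, raised it to 1.60. Leaving out control replicate 1 or 3 turned it to -0.42 or -0.47.

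Lyve1 (chromosome 7, 110850607 to 110863239) had 379, 5055 and 649 normalized counts in the controls. The E3–E12 diet libraries held 487, 621 and 1447, within the range of the controls. Its log2 change was -0.50 (SE 1.09), or 0.61 without control replicate 2. Lyve1 and Stab1 were highest in control replicate 2, where the endothelial genes, split as given above, summed to 4523 normalized counts, against 6793 to 12687 elsewhere. Of the genes of lymphatic endothelium, Prox1, a transcription factor with the highest mean of that list, had 1541 normalized counts in control replicate 2 and 757 to 3729 in the others. Flt4, a VEGF receptor, was listed at 0 there, which can be a failed estimate, and had 488 to 791 in the others.

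Mrc1, F13a1, Cd163 and Siglec1 had much the same profile over the libraries. Mrc1, the mannose receptor CD206, is the most widely used marker of border macrophages. Mrc1 (chromosome 2, 14229392 to 14332057) had 3369, 9716 and 4480 normalized counts in the controls against 3083, 4921 and 5179 in the diet libraries. The diet values lay within or just under the control range, giving a log2 change of -0.30 (SE 0.65, 95% interval -1.86 to 1.26). F13a1 encodes the A subunit of coagulation factor XIII, which macrophages, monocytes and platelets also make. In the controls F13a1 (chromosome 13, 36867178 to 37050244) stood at 1049, 3664 and 1299 normalized counts against 952, 1861 and 1287 in the diet libraries (log2 change -0.38, SE 0.71). Both changes were small beside the spread, and without control replicate 2 they were 0.14 for Mrc1 and 0.17 for F13a1.

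Cd163 (chromosome 6, 124304656 to 124330527), the haemoglobin-haptoglobin scavenger receptor, had 207, 962 and 413 normalized counts in the controls against 195, 425 and 230.5 in the diet libraries. Siglec1 (chromosome 2, 131069220 to 131086765), the sialic acid receptor sialoadhesin, had 366, 1254 and 469 in the controls against 239, 777 and 380.4 in the diet libraries. For both, control replicate 2 was highest, E3–E12 diet replicate 1 lowest, and the groups overlapped. Their log2 changes were -0.70 (SE 0.76) and -0.54 (SE 0.77), and without control replicate 2 they shrank to -0.13 and -0.0039.

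Likeness of profile was measured as the root mean square difference of centred log2 values over the 6 libraries. Mrc1 and F13a1 were the most alike pair, at 0.21, and Pf4 and Stab1 the least alike, at 2.41. Genes outside the markers closest to their mean profile included Ascc2, Ptpra, Tti1 and Dpf2, at 0.077 to 0.11, against a median of 1.18 over all genes tested. F13a1 itself lay at 0.15 and Mrc1 at 0.17, the closest of the markers, each of which is part of that mean. Other markers lay farther from it, with Lyve1 at 0.77, Stab1 at 0.98 and Pf4 at 1.52. Ascc2, a subunit of a helicase complex, had 486, 1690.5 and 754 normalized counts in the controls against 377, 759 and 561 in the diet libraries. Control replicate 2 was also its highest and E3–E12 diet replicate 1 its lowest library. The latter was lowest for 6 of the markers and for 16.5% of all genes tested. Dpf2, a subunit of the BAF chromatin remodelling complex, is expressed in most cell types. Control replicate 2 was highest for 26.3% of all genes tested and for 8 of the 10 markers.

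The highest library of Ms4a7 was 1.59 times its lowest, and that of Cd38 2.71 times, the smallest such spans among the markers. Cbr2 followed at 3.14, close to Mrc1 at 3.15. Cbr2 (chromosome 11, 120729489 to 120732114), a carbonyl reductase, had 659, 1109 and 928 normalized counts in the controls against 425, 1171 and 1334 in the diet libraries. Its diet values reached both below and above those of the controls, with a log2 change of -0.0100 (SE 0.68) that turned to 0.04 after quantile normalization. Of the 50-base windows of its transcripts, 12.1% also occur in Gm11771, whereas at most 1.33% are shared for any other marker. Reads of Cbr2 can thus be partly ambiguous, which was not measured on the reads themselves. Ms4a7 (chromosome 19, 11321039 to 11336146), a membrane protein of the MS4A family, had 325, 518 and 365 normalized counts in the controls against 501, 351 and 358 in the diet libraries. Group means of 403 ± 102 and 404 ± 84.7 (SD, n = 3 each) and a log2 change of 0.01 (SE 0.55) lay close together, though the 95% interval of -1.31 to 1.33 still allows a doubling either way. Cd38 (chromosome 5, 43868553 to 43912375), an enzyme that consumes NAD, had 271, 434 and 249.8 normalized counts in the controls against 209.9, 291 and 160.01 in the diet libraries. Its log2 change of -0.53 (SE 0.58) kept its sign with any 1 library left out (-0.75 to -0.28), but the groups overlapped.

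**Figure D3:**
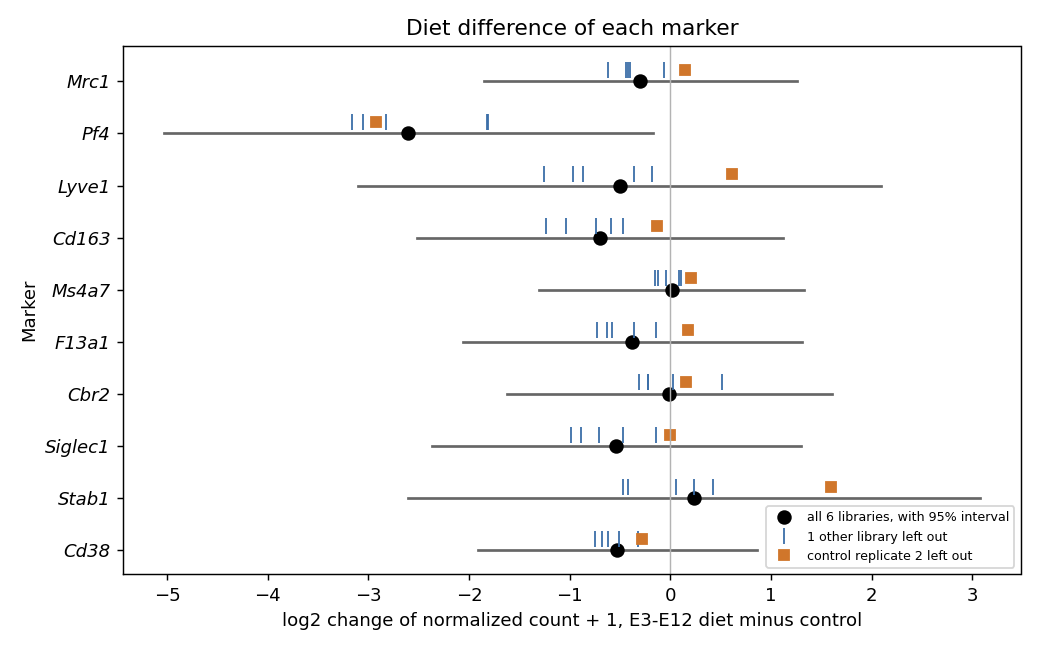
Log2 change of each marker between E3–E12 diet and control (black, with the 95% interval from limma), the value with control replicate 2 left out (orange squares) and with each other library left out (blue ticks). Only the interval of Pf4 lies below 0, and the squares of Lyve1 and Stab1 sit far to the right of their black points.

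Pf4 was the marker with the largest difference and the lowest level. It encodes platelet factor 4 (CXCL4), a chemokine stored in platelets that border macrophages also express. Pf4 (chromosome 5, 90772435 to 90773383) had 30.5, 36.5 and 173 normalized counts in the 3 control libraries. In the 3 diet libraries it had 2.25, 20.3 and 12.3. Every diet library was lower than every control, as in 2.91% of all genes tested, and the reverse held for 2.99%. The log2 change was -2.60 (SE 1.02, 95% interval -5.03 to -0.17), with an unadjusted p of 0.039 and an adjusted p of 0.999 from limma. The unadjusted p was no longer under 0.05 with an abundance trend in the spread, or without control replicate 3, E3–E12 diet replicate 1 or E3–E12 diet replicate 3. A two-sided exact permutation test gave p = 0.1, the smallest that 3 libraries against 3 allow. The change lay between -3.17 and -1.81 with any 1 library left out, where its sign could not turn because the groups were separate.

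Control replicate 3 and E3–E12 diet replicate 1 lay farthest apart in Pf4. As a sum, markers of platelets ordered the libraries differently, while single genes varied. Ppbp, which encodes another platelet chemokine, was listed at 0 in 4 libraries. It had 4.88 normalized counts in control replicate 3, its highest library as for Pf4, and 4.49 in E3–E12 diet replicate 1. Gp9, with the highest mean of the list, had 45.9, 260 and 121 in the controls against 48.5, 45.0 and 209 in the diet libraries. The 7 platelet and megakaryocyte genes summed to 159 to 465 normalized counts in controls and 221 to 435 in E3–E12 diet mice, lowest in control replicate 3, where Pf4 was highest. The reads behind the low values of Pf4 are not given in the sources used here.

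Since the libraries differed in total and in the level of microglia genes, the markers were also set against these genes in the same library. Library scaling cannot move this ratio. The 12 microglia genes, among them P2ry12 and Tmem119, summed to 60436 and 63553 normalized counts in control replicate 1 and E3–E12 diet replicate 1. In the other 4 libraries they summed to 128916 to 237439. Sparc, with the highest mean of the list, took 22291 and 28156 of the former 2 sums and 35918 to 86795 in the other 4 libraries. Per 100 normalized counts of microglia genes, the markers summed to 15.4, 27.8 and 6.27 in the controls against 19.0, 15.8 and 8.47 in the diet libraries. The means of 16.5 ± 10.8 and 14.4 ± 5.38 (SD, n = 3 each) overlapped widely. The lowest library of each group was its replicate 3.

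Stab1 took 21.4% to 65.5% of the marker sum, and Mrc1 14.7% to 39.0%. Without Stab1, the sum was 11.0, 9.58 and 4.93 per 100 in the controls against 9.59, 8.10 and 4.85 in the diet libraries, so control replicate 2 no longer stood out. Relative to microglia genes, control replicate 2 was the highest library for 3 markers, Stab1, Lyve1 and Cd163, against 8 on the scale of normalized counts. Control replicate 1 was highest for 5. Mrc1 spanned 24.2 to 55.7 per 1000 normalized counts of microglia genes and Stab1 13.4 to 182. On this scale Pf4 overlapped between groups, since control replicate 2 had 0.154 and E3–E12 diet replicate 2 had 0.157 per 1000.

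**Figure D4:**
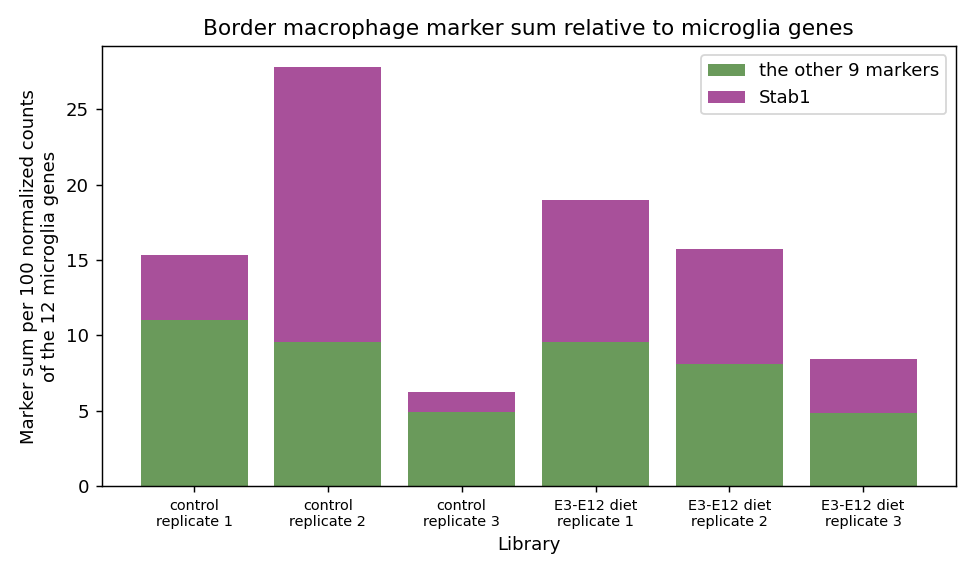
Sum of the 10 markers per 100 normalized counts of the 12 microglia genes in each library, split into Stab1 (purple) and the other 9 markers (green). Totals run from 6.27 in control replicate 3 to 27.8 in control replicate 2, and the green part stays between 4.85 and 11.0.

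Further genes of border macrophages were measured from a list of 25, and 23 of them averaged enough to be tested. None passed the adjusted threshold (adjusted p = 0.999 for each from limma) and 0 had an unadjusted p under 0.05, by the standard fit and with an abundance trend in the spread. By mean log2 level 13 lay above and 10 below the controls in E3–E12 diet mice (9 and 14 after quantile normalization), with a median log2 change of 0.05. Those with the highest mean normalized counts were Maf, a transcription factor of macrophages, the endocytic adaptor Dab2, the lipoprotein gene Apoe and Cd74, the invariant chain of MHC class II. Their log2 changes lay between -0.46 and 0.16, each within its standard error. Of these, microglia also express Maf and Apoe. Timd4 was low, at 5.95 to 68.0 normalized counts, and Cd209f and Cd209b did not reach the filter.

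Clec10a and Mgl2, neighbouring genes for the galactose-type lectins CD301a and CD301b, had the largest log2 changes of this list. Clec10a (chromosome 11, 70156197 to 70170834) had 77.3, 109 and 185 normalized counts in the controls against 565, 254 and 213 in the diet libraries. All 3 diet libraries were above all 3 controls, as in 2.99% of all genes tested, the opposite order to Pf4. Clec10a was the only 1 of the 23 genes tested from this list whose groups did not overlap. The log2 change was 1.42 (SE 0.68, exact permutation p = 0.1). With 1 library left out it lay between 0.996 and 1.76, where its sign could not turn because the groups were separate. It was 1.49 after quantile normalization and 1.54 with equal totals. Mgl2 had 38.8, 9.88 and 118 normalized counts in the controls against 54.4, 236 and 78.6 in the diet libraries. Its groups overlapped (log2 change 1.45, SE 1.05), and the change was 0.56 without control replicate 2, 0.84 without E3–E12 diet replicate 2 and 2.28 without control replicate 3. Of the sequence of Mgl2, 13.1% of the 50-base transcript windows occur in other genes, Clec10a among them, against 9.02% for Clec10a. Cp, which encodes the ferroxidase ceruloplasmin, had the next largest log2 change, at -1.06 (SE 0.69).

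Other cells that a CD11b selection could carry along were followed by their own markers. The neutrophil genes were highest in control replicate 2, as 8 of the border macrophage markers were, led by S100a9 with 1289 normalized counts there and 190 to 308 elsewhere. Of the monocyte genes, which bear on F13a1, Ccr2 had 72.2 to 190.0 normalized counts, and Vcan, which other brain cells also express, 171 to 7286. The 5 B, T and NK cell genes summed to between 9.93 and 338 normalized counts, led by Cd3g. The 9 fibroblast and mural genes, led by Rgs5, summed to 1996 in control replicate 2 and 6008 to 17897 elsewhere. The choroid plexus genes, led by Ttr, summed to 58.0 in E3–E12 diet replicate 2 and 40431 in E3–E12 diet replicate 1. The summed level of the 5 oligodendrocyte genes, led by Mbp, was 4386 to 40915 normalized counts in controls and 4792 to 20610 in E3–E12 diet mice. The 5 astrocyte genes summed to 1192 to 1520 and 1455 to 3435 in the same order, and the 5 neuron genes to 126 to 1276 and 743 to 1504. Erythroid genes summed to at most 219 normalized counts in any library. The part of these cells in the marker values was not tested.

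**Figure D5:**
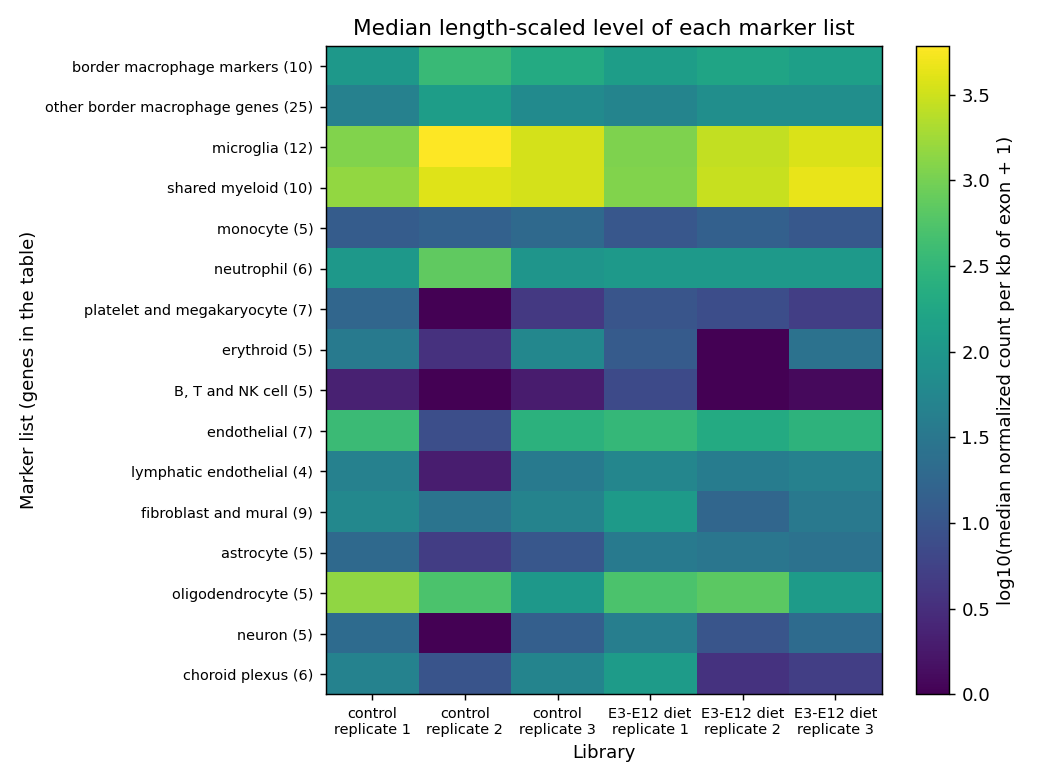
Median length-scaled level of each marker list in each library, as log10(median normalized count per kb of exon + 1), with the number of genes found in the table in parentheses. Microglia and shared myeloid genes are the highest lists in 5 libraries, oligodendrocyte genes are above microglia genes in control replicate 1 (1445 against 1170 per kb), and the neutrophil list is brightest in control replicate 2.

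The upstream sequences of Mrc1 and F13a1, the markers with the most similar profiles, and of Pf4, the marker whose groups were separate, are shown with the core letters bound by PU.1, the transcription factor that macrophages and microglia depend on. Each window shown is the 250 bases before the RefSeq gene start in build GRCm38.p6, 5′ to 3′ on the strand of the gene. Capitals mark GAGGAA or its reverse complement TTCCTC.
Mrc1 (chr2:14229164-14229413, plus strand): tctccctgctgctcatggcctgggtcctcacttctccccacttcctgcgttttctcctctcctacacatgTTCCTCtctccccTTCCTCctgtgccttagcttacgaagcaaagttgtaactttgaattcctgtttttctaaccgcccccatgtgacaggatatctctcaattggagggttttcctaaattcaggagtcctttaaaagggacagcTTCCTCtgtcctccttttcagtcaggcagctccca
F13a1 (chr13:37050245-37050494, minus strand): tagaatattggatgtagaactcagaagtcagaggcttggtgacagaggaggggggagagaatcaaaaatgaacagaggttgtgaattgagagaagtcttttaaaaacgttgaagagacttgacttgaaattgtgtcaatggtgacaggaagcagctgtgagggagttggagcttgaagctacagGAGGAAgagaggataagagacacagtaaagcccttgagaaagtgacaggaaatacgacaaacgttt
Pf4 (chr5:90772185-90772434, plus strand): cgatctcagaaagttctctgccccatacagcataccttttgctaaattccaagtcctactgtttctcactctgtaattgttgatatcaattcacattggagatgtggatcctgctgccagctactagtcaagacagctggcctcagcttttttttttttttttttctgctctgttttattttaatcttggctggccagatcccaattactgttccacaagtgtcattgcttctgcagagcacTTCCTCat
The 8 markers with an entry had 10 windows of this length. Those of Cd163, Cbr2 and Stab1, and a second window each of F13a1 and Ms4a7, do not end at the RefSeq gene start. These letters stood in 5 of the 10, from Mrc1, F13a1, Pf4, Cbr2 and Stab1, and in 23.3% of 32851 windows of all genes. Mrc1 held 3 copies, and in Pf4 the only copy began 8 bases before the start. A longer form, AGGAAGT, which can overlap the first, stood in 3 of the 10 and in 7.69% of all windows. These were the windows of Mrc1 and Pf4 shown and a second window of F13a1, whereas the F13a1 window shown does not hold it. A match describes the letters and does not show a bound site.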

How the data were processed

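RNA-seq libraries of cells labelled as microglia from the NST of P15 mice were used, 3 from control and 3 from E3–E12 diet mice, 1 column per library. The authors deposited normalized counts per gene, treated here as a signal. The study's methods give the reads sequenced per sample, not those assigned to genes. Per the labels, FastQC, STAR, featureCounts and DESeq2 were used on GRCm38, without versions. The file name mentions surrogate variables, an adjustment that the sources used here do not describe. Low values did not fall on common steps, so whole reads were not recovered and no count test was run. The precision of single values is therefore not known.

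Symbols were matched for 26507 of 26789 identifiers. Exon lengths and coordinates came from GENCODE M21 (GRCm38), with overlapping exons merged, and upstream sequences from RefSeq. Genes with a mean of at least 10 were tested on log2(value + 1) with limma 3.58.1 in R 4.3.3 (two-sided, Benjamini-Hochberg over 18007 genes, threshold 0.1). The code was run on simulated data with large added changes, and their recovery was required only at a spread below that of these data. That run thus does not show which changes could be detected here. Single genes were also given an exact permutation test over libraries. Alternatives were pseudocounts of 0.5 and 10, no filter, quantile normalization, equal totals, a replicate block, an abundance trend and leaving out each library. The labels describe the libraries as separate samples, and the study's methods as separate litters.

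The markers and gene lists were chosen with earlier results of these data known. All 10 markers were named. From the other border macrophage genes, the 4 with the highest mean, the 3 with the largest absolute log2 change and those whose groups did not overlap were named, from further lists the highest gene, and outside the lists the genes of most similar profile. Some genes that this rule selects are not reported here. Cldn5, Pecam1, Flt4, Slc2a5, Gpr34, Olfml3, Ppbp, Tyrobp, Ccr2, Timd4, Cd209f and Cd209b were named after their values were seen.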

Additional observations from a re-analysis of the deposited data

How the results depend on the processing

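No marker and no other border macrophage gene passed the adjusted threshold under any of the 13 alternatives (lowest adjusted p = 0.869 for a named gene). The abundance trend and, for the ratio, leaving out Stab1 or single libraries were chosen after seeing the data. With the replicate number as a block 0 markers passed. Same-numbered libraries deviated together with correlations of 0.26, 0.035 and 0.14 over genes. For replicates 1 and 3 the same number was the closest match, whereas control replicate 2 was most like E3–E12 diet replicate 3 (0.087). Whether the numbers mark pairs is thus not settled, and the main fit did not use them. The block moved genes with an unadjusted p under 0.05 from 327 to 468, and the abundance trend moved them to 268, with 0 markers under 0.05. Quantile normalization turned the log2 changes of Cbr2 and Cd74 to 0.039 and 0.052, and equal totals to 0.11 and 0.026. Quantile normalization shifted the median log2 change of all genes from 0.09 to -0.0034, and equal totals shifted it to 0.20. With 1 library left out, the number of markers lower in E3–E12 diet mice ran from 4 to 10. The log2 changes then ran from -0.62 to 0.14 (Mrc1), -1.25 to 0.61 (Lyve1), -0.15 to 0.21 (Ms4a7), -0.73 to 0.17 (F13a1), -0.32 to 0.51 (Cbr2), -0.47 to 1.60 (Stab1), -1.04 to 0.13 (Maf), -0.65 to 0.16 (Dab2), -0.37 to 0.87 (Apoe) and -0.51 to 0.62 (Cd74). The difference of the marker sum per 100 of microglia genes was -2.09, -0.995 without Stab1, and -7.19 to 3.58 with 1 library left out, the latter without control replicate 2. The cause was not tested. The number of reads assigned to genes is not given in the sources used here, so what depth limits was not assessed.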
